A study of Mus musculus with 11 samples.

Results

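The expression of 10 genes that encode or make cell surface markers used to recognise pluripotent and other stem cells was followed in mouse naive extra-embryonic endoderm (nEnd). The genes were chosen by name, as Pecam1, Ly6a, Ly6e, Cd24a, Cd9, Cd81, Alpl, Fut4, Adgre5 and Icam1, and all 10 were among the 48952 genes of the bulk table and the 32285 genes of the single-cell tables. nEnd is a culture model of the primitive endoderm (PrE) of the blastocyst, grown on feeder fibroblasts with Activin A, CHIR99021 and LIF. Bulk RNA-seq covered the untreated line OCT4-mCherry, which carries a reporter on the OCT4 protein (gene symbol Pou5f1). Its cells were stained for the receptor PDGFRA and sorted into Pdgfra+ cells (PDGFRA without reporter, taken as committed endoderm), DP cells (both signals) and Oct4+ cells (reporter without PDGFRA, taken as de-differentiated and epiblast (Epi)-like), with 3 libraries each. Droplet single-cell RNA-seq covered the line EPUc (Oct4LOF, in which 4-hydroxytamoxifen (4OHT) deletes Oct4), sorted for PDGFRA and then cultured untreated (-4OHT) or with 4OHT (+4OHT), with 1 library each. The study names these libraries biological replicates, and the sources used here do not say whether they came from separate cultures or sorts, so p-values measure the spread between these libraries. Each experiment rests on 1 cell line.

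Sorting and naming of embryo-derived cells depend on proteins and sugars at the cell surface, and many such markers are shared by pluripotent cells, adult stem cells and differentiated tissues. Ly6a (SCA-1), Ly6e, Cd24a and tissue-nonspecific alkaline phosphatase (Alpl) are held in the outer membrane by a glycolipid anchor. Pecam1 (CD31) and Icam1 are adhesion molecules of the immunoglobulin superfamily, Cd9 and Cd81 are tetraspanins, Fut4 is a fucosyltransferase able to make the Lewis X sugar known as SSEA-1, and Adgre5 (CD97) is an adhesion G protein-coupled receptor that binds CD55. Staining for alkaline phosphatase, SSEA-1 and PECAM1 is long established for mouse embryonic stem cells, while SCA-1 is best known from blood stem cells and is induced by interferon.

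Ly6e and Ly6a lie near each other on chromosome 15, and the other members lie elsewhere. In GENCODE annotation of build GRCm38, Ly6e spans chr15:74955051-74959905 on the plus strand and Ly6a spans chr15:74994877-74998031 on the minus strand. Pecam1 spans chr11:106654217-106750628 and Alpl spans chr4:137741733-137796384, both on the minus strand, and Icam1 spans chr9:21015985-21028817 on the plus strand. All 10 genes are annotated as protein coding.

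A promoter window was found in RefSeq (GRCm38.p6) for 5 of the 10 genes, namely Cd9, Cd81, Alpl, Fut4 and Icam1. The 250 bases before the start of Icam1 and before the outermost start of Alpl are shown because these genes took different paths through the sorted groups, as described below. Capitals mark the letters GGGCGG (the GC box bound by SP1-type factors) and GGAAATTCC (an NF-kB site), each searched on both strands, and 2 GC boxes overlap in the Alpl window.
Icam1 (chr9:21015690-21015939, plus strand): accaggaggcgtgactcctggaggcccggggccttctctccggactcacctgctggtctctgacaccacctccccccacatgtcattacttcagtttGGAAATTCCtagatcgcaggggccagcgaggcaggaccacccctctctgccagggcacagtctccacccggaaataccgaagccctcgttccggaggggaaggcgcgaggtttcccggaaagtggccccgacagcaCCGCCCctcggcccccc
Alpl (chr4:137796385-137796634, minus strand): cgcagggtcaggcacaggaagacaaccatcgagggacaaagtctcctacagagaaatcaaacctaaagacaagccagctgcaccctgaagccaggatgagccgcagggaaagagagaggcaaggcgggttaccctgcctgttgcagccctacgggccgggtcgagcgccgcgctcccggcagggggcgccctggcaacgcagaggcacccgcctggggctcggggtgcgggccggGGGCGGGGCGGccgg
The letters GGGCGG occur in 32.7% of the 32851 promoter windows of the same length and the letters GGAAATTCC in 0.286%. The octamer ATGCAAAT, read by OCT4-type factors, occurs in 1.60% of windows and in none of the members' windows. RefSeq also gives a window inside the Alpl gene (chr4:137766476-137766725), before another start, which holds no GC box and 1 TATAAA, letters found in 12.4% of windows. A match to these letters is a description of the sequence and was not tested as a site.

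Each bulk library held between 8019631 and 11642571 counted reads, and the sort was visible in the genes it used. In CPM, the read count scaled to library size, Pou5f1 stood at 17.5 ± 9.0 (mean ± SD, n = 3) in Pdgfra+, 229 ± 90.3 in DP and 981 ± 142 in Oct4+, and Pdgfra at 729 ± 219, 590 ± 153 and 7.43 ± 4.07. The summed level of 14 feeder fibroblast markers was between 53.5 and 145 CPM in the Pdgfra+ libraries, 19.2 and 66.8 CPM in the DP libraries and 21.1 and 193 CPM in the Oct4+ libraries, with Oct4+ replicate 1 the highest. Fbn1 alone gave 70.2, 139 and 35.2 CPM in Pdgfra+, and 30.7% of the endoderm-like single cells of -4OHT described below held it. Col1a1 was at 0, 0.398 and 2.61 CPM in Pdgfra+ and at 68.3, 5.23 and 2.66 CPM in Oct4+. Col3a1 was at 0, 0.299 and 7.62 CPM in Pdgfra+ and at 17.7, 2.66 and 0.111 CPM in Oct4+. In bulk samples, fewer cells with a transcript and less of it per cell cannot be told apart.

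The first question was how the markers differ between committed endoderm and the Epi-like cells that arise from it. Of the 10 genes, 6 were higher in Oct4+ than in Pdgfra+ (Pecam1, Adgre5, Ly6e, Alpl, Ly6a and Icam1), Cd24a and Cd9 were lower, and Cd81 and Fut4 did not pass the threshold. The threshold was an adjusted p below 0.05 (edgeR's quasi-likelihood test, Benjamini-Hochberg over 14185 genes) with an absolute log2 fold change above 1.5. It was passed by 32.0% of all genes tested in this comparison, so that changes of this size were common, split into 17.3% higher and 14.7% lower in Oct4+. All 10 members passed the filter on low counts. The median log2 fold change of the members was 2.14, beside 0.01 over all genes.

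Pecam1, an adhesion molecule of endothelium, platelets and pluripotent cells, had the largest change. It was at 1.22, 0.498 and 1.15 CPM in Pdgfra+ replicates 1 to 3, at 4.24, 8.14 and 5.23 CPM in DP, and at 159, 86.7 and 193 CPM in Oct4+. The 3 groups did not overlap, which in Oct4+ and Pdgfra+ was true of 69.3% of all genes and in DP and Oct4+ of 62.6%. Oct4+ exceeded Pdgfra+ by a log2 fold change of 7.26 ± 0.45 (SE, adjusted p = 2.05e-06), and DP was below Oct4+ by -4.63 ± 0.37 (adjusted p = 9.41e-06). The Pdgfra+ values rest on 5 to 11 reads a library. The 8 other endothelial markers listed summed to between 22.7 and 27.6 CPM in Oct4+ and between 26.3 and 75.7 CPM in Pdgfra+ libraries. Of the 6 tested among them, 1 was higher in Oct4+ than in Pdgfra+, 1 was lower and 4 did not pass.

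The adhesion receptor gene Adgre5 showed the same order of groups. It was at 4.27, 3.39 and 5.53 CPM in Pdgfra+, at 16.3, 47.1 and 67.2 CPM in DP and at 108, 124 and 131 CPM in Oct4+, without overlap between the groups. The log2 fold change was 4.77 ± 0.47 for Oct4+ against Pdgfra+ (adjusted p = 2.10e-05). DP libraries were spread more widely than those of the other groups, with a coefficient of variation of 58.8% against 24.5% in Pdgfra+ and 9.77% in Oct4+. Cd55, the ligand of Adgre5, was on average at 86.8 CPM in Pdgfra+ and at 21.7 CPM in Oct4+, a log2 fold change of -2.01 ± 0.47 (adjusted p = 0.00371), opposite in direction to its receptor.

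Among the glycolipid-anchored proteins, Ly6e and Alpl were again lowest in Pdgfra+ and highest in Oct4+. Ly6e was at 7.32, 5.18 and 3.65 CPM in Pdgfra+, at 34.3, 53.8 and 15.9 CPM in DP and at 89.6, 102 and 98.6 CPM in Oct4+. The Oct4+ libraries lay close together and above every DP library, and the log2 fold change against Pdgfra+ was 4.17 ± 0.42 (adjusted p = 2.48e-05). Alpl, the enzyme behind alkaline phosphatase staining, was at 47.2, 44.9 and 20.7 CPM in Pdgfra+, at 104, 205 and 169 CPM in DP and at 369, 235 and 365 CPM in Oct4+. The groups did not overlap, and the log2 fold change of Oct4+ against Pdgfra+ was 3.10 ± 0.36 (adjusted p = 5.3e-05). Of 3 other alkaline phosphatase genes, 1 passed the filter on low counts, namely Alppl2, at a mean of 1.55 CPM in Oct4+.

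Ly6a behaved differently from its neighbour Ly6e and was highest in DP. It was at 7.32, 0.897 and 0.939 CPM in Pdgfra+, at 67.6, 121 and 21.3 CPM in DP and at 7.29, 9.86 and 38.7 CPM in Oct4+. No DP library overlapped Pdgfra+, but Oct4+ overlapped both other groups, and the highest library of every group exceeded the lowest by at least 5.31 times. Oct4+ against Pdgfra+ gave a log2 fold change of 2.64 ± 0.96 (adjusted p = 0.0339), which lost the call without Pdgfra+ replicate 2 (adjusted p = 0.101), Pdgfra+ replicate 3 (0.104) or Oct4+ replicate 3 (0.167). DP against Oct4+ gave 1.92 ± 0.85 (adjusted p = 0.0771), which passed without DP replicate 3 (2.38, adjusted p = 0.0409) or Oct4+ replicate 3 (3.04, adjusted p = 0.0179), and with all libraries but no filter on low counts (1.98, adjusted p = 0.00135).

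Icam1, the ligand of leukocyte integrins, was highest in Oct4+. It was at 14.5, 18.9 and 22.5 CPM in Pdgfra+, at 10.97, 18.2 and 8.76 CPM in DP and at 64.3, 49.8 and 59.9 CPM in Oct4+. Pdgfra+ and DP overlapped, and every Oct4+ library stood above both. The log2 fold change was 1.63 ± 0.27 for Oct4+ against Pdgfra+ (adjusted p = 0.000507) and -2.19 ± 0.28 for DP against Oct4+ (adjusted p = 0.000131). Of 6 tested genes on a list of NF-kB targets and regulators, none was higher in Oct4+ than in Pdgfra+ and 3 were lower (Tnfaip3, Vcam1 and Nfkb2). Vcam1, another adhesion molecule of the same superfamily, was on average at 17.4 CPM in Pdgfra+ and at 1.19 CPM in Oct4+.

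Cd24a and the tetraspanin Cd9 were higher in Pdgfra+ than in Oct4+, although both are used to mark stem cells. Cd24a was at 167, 180 and 179 CPM in Pdgfra+, at 139, 37.9 and 76.7 CPM in DP and at 23.3, 50.3 and 45.8 CPM in Oct4+. Pdgfra+ lay above both other groups, which overlapped each other, and the log2 fold change of Oct4+ against Pdgfra+ was -2.14 ± 0.42 (adjusted p = 0.00141). Cd9 was at 672, 544 and 440 CPM in Pdgfra+, at 697, 460 and 589 CPM in DP and at 149, 151 and 227 CPM in Oct4+. The Oct4+ libraries lay below all others, at a log2 fold change of -1.65 ± 0.23 against Pdgfra+ (adjusted p = 0.000169), or -1.47 without Pdgfra+ replicate 1, which is under the fold threshold. DP was above Oct4+ by 1.73 ± 0.23 (adjusted p = 0.000175).

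Cd81, the other tetraspanin of the 10, overlapped between all groups. Its mean was 309 ± 92.3 CPM in Pdgfra+, 227 ± 114 in DP and 206 ± 38.1 in Oct4+ (SD, n = 3), and the log2 fold change of Oct4+ against Pdgfra+ was -0.59 ± 0.36 (adjusted p = 0.178). Of 22 tested genes on a list of other tetraspanins and their partners, 8 were higher in Oct4+ than in Pdgfra+ and 7 were lower, with a median log2 fold change of -0.06. Cd37 had the largest rise (6.82 ± 0.82, adjusted p = 6.8e-05) and Tspan8 the largest fall (-4.45 ± 0.81, adjusted p = 0.000911), so that members of the family moved in both directions.

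**Figure D1:**
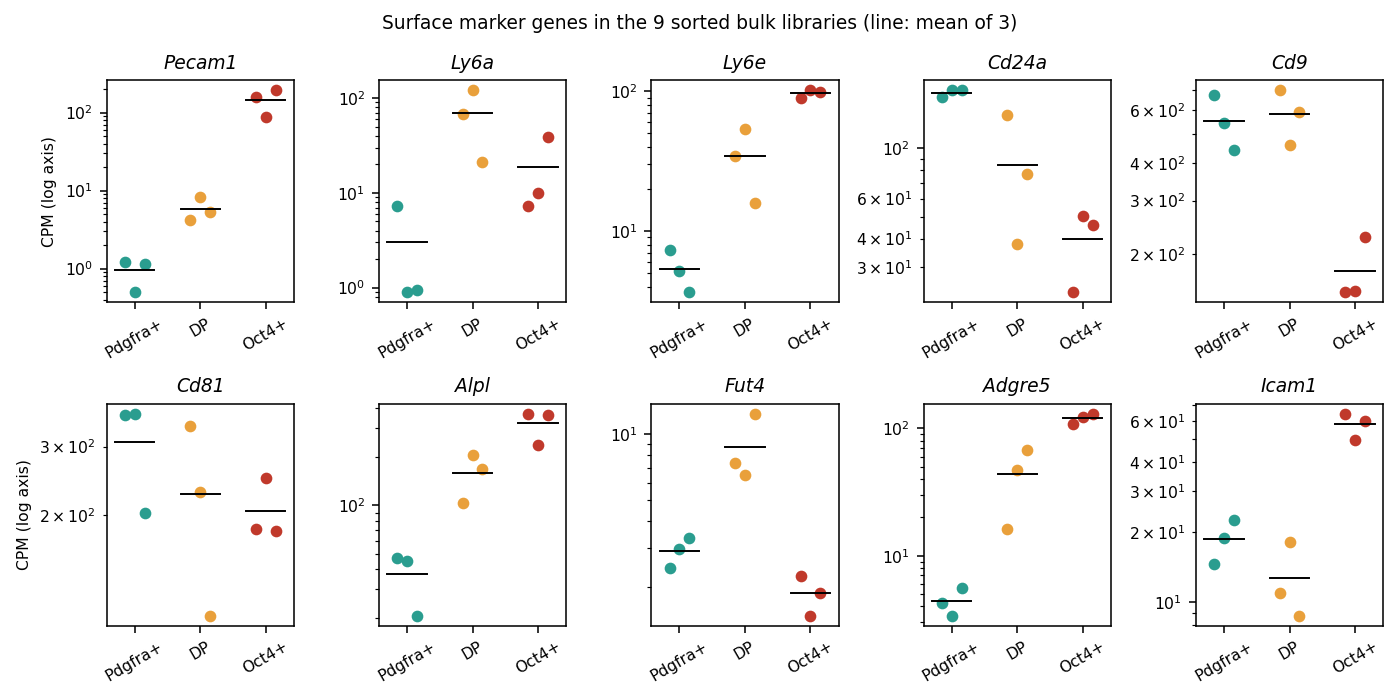
CPM (log axis) of the 10 genes in the 9 sorted libraries, with 1 point for each library and a line at the mean of 3. Pecam1, Ly6e, Alpl and Adgre5 climb from Pdgfra+ through DP to Oct4+, Ly6a and Fut4 peak in DP, and Cd24a and Cd9 are lowest in Oct4+.

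The second question was whether DP cells, which keep PDGFRA while carrying the OCT4 reporter, already differ from Pdgfra+ cells in these markers. Of the 10 genes, 6 were higher in DP (Ly6a, Adgre5, Ly6e, Pecam1, Alpl and Fut4) and none was lower. Among all genes tested 3.89% passed, 3.20% on the higher and 0.691% on the lower side. The largest change was that of Ly6a, at a log2 fold change of 4.56 ± 0.996 (adjusted p = 0.0307). It was followed by Adgre5 at 3.30 ± 0.45 (0.0101), Ly6e at 2.69 ± 0.41 (0.0124), Pecam1 at 2.63 ± 0.46 (0.0173), Alpl at 2.08 ± 0.35 (0.0162) and Fut4 at 1.57 ± 0.35 (0.0331), each with its adjusted p in brackets. For these 6 genes every DP library lay above every Pdgfra+ library, as was true in one direction or the other of 34.2% of all genes. The median log2 fold change of the members was 1.83, beside 0.02 over all genes.

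The size of this set depended on single libraries. It shrank to 1 gene without Pdgfra+ replicate 3, to 2 without DP replicate 3, and to 3 without Pdgfra+ replicate 2 or DP replicate 2, and over all genes 552 calls fell to between 57 and 148 in these fits. Adgre5 passed in all 6 fits that left out a library, at an adjusted p of at most 0.0478. Fut4 lost the call in 5 of the 6, Ly6a and Pecam1 in 4, Alpl in 2 and Ly6e in 1, without a change of direction.

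The other 4 members did not pass. Cd24a was lower in every DP library than in any Pdgfra+ library, at a log2 fold change of -1.05 ± 0.41 (adjusted p = 0.145), and passed only without DP replicate 1 (-1.61, adjusted p = 0.0307). Cd9 gave 0.08 ± 0.22 (adjusted p = 0.859), Cd81 gave -0.45 ± 0.36 (0.467) and Icam1 gave -0.56 ± 0.28 (0.235), and for these 3 genes the libraries overlapped. Of 17 endoderm markers, 2 were higher in DP (Amn and Cubn, which form the endocytic receptor of visceral endoderm), none was lower and 15 did not pass. Of 16 epiblast markers, 12 were higher in DP.

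Fut4 peaked in DP at a low level. It was at 2.44, 2.99 and 3.34 CPM in Pdgfra+, at 7.36, 6.49 and 12.4 CPM in DP and at 2.25, 1.48 and 1.88 CPM in Oct4+. DP exceeded Oct4+ by a log2 fold change of 2.21 ± 0.36 (adjusted p = 0.000603), whereas Oct4+ against Pdgfra+ gave -0.64 ± 0.36 (adjusted p = 0.151). Fut9, the enzyme that makes most SSEA-1 in mouse embryos, had another profile. Mean CPM of Fut9 was 1.26 for Pdgfra+, 9.20 for DP and 11.1 for Oct4+, higher in DP by 2.84 ± 0.67 (adjusted p = 0.0381) and in Oct4+ by 3.11 ± 0.67 (adjusted p = 0.00244), both against Pdgfra+.

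**Figure D2:**
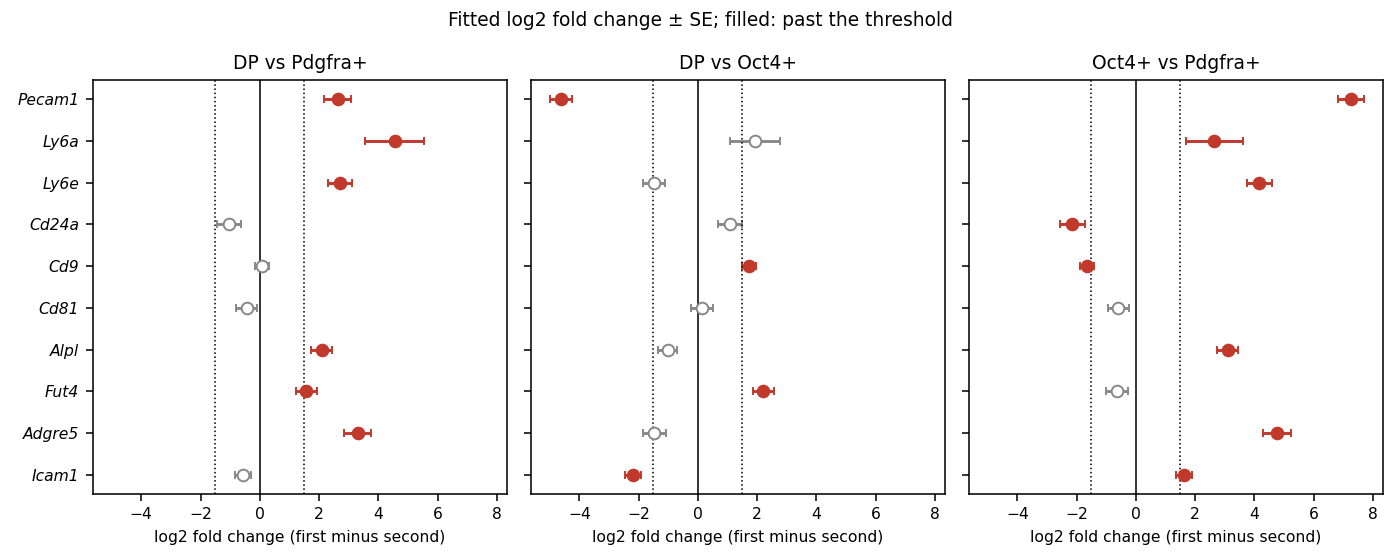
Fitted log2 fold change (first group minus second) ± SE of the 10 genes in the 3 comparisons of sorted groups, with dotted lines at the fold threshold of 1.5 and filled points past the threshold. In the comparison of DP with Pdgfra+ the filled points lie on the right, while Pecam1 and Icam1 lie left of the line in DP against Oct4+.

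The third comparison set DP against Oct4+, 2 groups that share the reporter. Fut4 and Cd9 were higher in DP, and Pecam1 and Icam1 were lower. Among all genes 27.7% passed, 13.1% higher and 14.6% lower in DP. Ly6e (-1.48 ± 0.37, adjusted p = 0.00646) and Adgre5 (-1.47 ± 0.39, adjusted p = 0.00948) missed only the fold threshold and passed it with DESeq2's size factors. Alpl was at -1.02 ± 0.33 (adjusted p = 0.0237) and Cd24a at 1.09 ± 0.41 (adjusted p = 0.0447), below the fold threshold in the same way. These comparisons share libraries with those above and are not independent of them.

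The level of a gene in DP as a share of its level in Oct4+ set the members apart. Pecam1 in DP was at 4.01% of its Oct4+ mean, close to the epiblast genes Nanog (2.98%) and Sox2 (4.80%). Ly6e was at 35.9%, Adgre5 at 36.1% and Alpl at 49.3%, above the Pou5f1 share of 23.4%, and Ly6a was at 375%. Over 16 epiblast markers the share ran from 2.01% to 53.2% with a median of 11.99%. The part of a few Oct4+ cells among the sorted DP cells in these values was not tested.

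The relatives of the members were compared between DP and Pdgfra+ by list. Of 23 other Ly6 family genes, 8 passed the filter on low counts, and Ly6g6e and Ly6k were higher in DP. Ly6g6e was at 3.12, 5.78 and 23.5 CPM in DP and on average at 0.579 CPM in Pdgfra+ (log2 fold change 4.19 ± 0.89, adjusted p = 0.0281). Of 16 tested interferon-induced genes, with which Ly6a and Ly6e are often listed, none passed in either direction, at a median log2 fold change of -0.10. Of 22 tetraspanins and partners none passed. At the 3.89% of all genes that passed in this comparison, lists of these sizes would hold few or no calls. The absence of calls therefore decides nothing about these families. Among 23 other surface markers, Tdgf1 and Fgfr2 were higher in DP and F3 was lower. These list calls also depended on single libraries. When a library was left out, calls ran from 0 to 2 for the Ly6 list and from 0 to 4 for the other surface markers. They ran from 0 to 1 for the list of glycan enzymes that holds Fut9.

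As a description, the genes whose log2 CPM correlated best with each member over the 9 libraries, up to 2 a member, were listed among 9604 genes with at least 10 CPM on average. Libraries of 3 sorted groups set most of such a correlation. Adgre5 ran closest to Syt9 (r = 0.983) and to Pou5f1 itself (r = 0.982), Pecam1 to Lpl (0.995) and Col18a1 (0.995), Alpl to Zfp961 and Spp1 (0.989 each), Ly6e to Zfp600 (0.984) and Zfp978 (0.981), and Icam1 to Zfp850 (0.992). Cd9 ran closest to Nipsnap3b (0.990), Cd24a to Prkab2 (0.975) and Laptm4a (0.974), Fut4 to 4930522L14Rik (0.969) and Rufy3 (0.964), Ly6a to Rab31 (0.961) and Jam3 (0.934), and Cd81 to S100a6 (0.932) and Tgfb1 (0.905).

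The single-cell libraries located the markers in the cultures. They held 6896 (-4OHT) and 7283 (+4OHT) barcodes with 107645982 and 95420040 UMIs, and 21 barcode sequences occurred in both. After a filter of at least 1000 genes and at most 10% mitochondrial UMIs, 5324 and 6299 cells were kept and clustered without the 10 genes. Clusters were named from marker genes as endoderm-like (clusters 1, 2 and 5, with 1327 and 6034 cells), epiblast-like (clusters 3 and 4, with 3699 and 0 cells), trophectoderm-like (38 and 202), 2-cell-like (126 and 4) and fibroblast-like (20 and 31), in the order -4OHT and +4OHT. Clusters 8 and 9 stayed unnamed, the former for its low depth and the latter (64 and 1 cells) because it carried markers of both main classes at high depth, a rule set after seeing the data, and together they held 114 and 28 cells. The absence of epiblast-like cells in +4OHT allows a share of up to 0.0476% of its cells, but 1 of 5984 cells of +4OHT was epiblast-like without the 5% deepest barcodes and 2 of 1280 under a stricter filter on cells. Of the latter 2 cells, 1 lay in a cluster led by Gm5039 and Zscan4d among others. That cluster had 2 of the 2-cell markers detected, too few to be named 2-cell-like.

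Different clusters made up the endoderm-like cells of the libraries. Cluster 5, led by Amn and Cubn among others, held 683 cells of -4OHT and none of +4OHT, and 7 of 16 epiblast markers were detected in it beside 16 of 17 endoderm markers. In a finer clustering (Leiden resolution 0.5), clusters with Amn and Cubn among their leading genes held 462 and 221 cells, all of -4OHT. The smaller had 13 of the 16 epiblast markers beside 16 endoderm markers. Its depth was 1.37 times the library median, below the 1.5 times that leaves such a cluster unnamed. Cluster 1, led by the stomach-type secreted proteins Gkn2, Gkn1 and Tff1, held 193 and 3788 cells, and cluster 2 held 451 and 2246. With 1 library per condition there is no replicate error and no test, so levels are given as CPM of summed UMIs with exact 95% Poisson intervals, which cover counting error only. The targeted gene Pou5f1 was at 15.2 CPM (13.6 to 16.9) in endoderm-like cells of -4OHT and at 1.75 CPM (1.48 to 2.05) in those of +4OHT.

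In -4OHT, where both classes lay in 1 library, 3 of the 10 markers were more than 2-fold higher in epiblast-like than in endoderm-like cells (Pecam1, Alpl and Icam1) and 4 were more than 2-fold lower (Ly6a, Cd24a, Cd9 and Fut4). Among 5915 genes with a mean of at least 20 CPM, 24.0% lay past 2-fold (7.44% higher and 16.5% lower), and of the 6 members at that level 2 were higher and 2 lower. Pecam1 was at 47.5 CPM (45.9 to 49.1) in epiblast-like and at 4.06 CPM (3.27 to 4.99) in endoderm-like cells, a ratio of 11.7 (9.48 to 14.6). Alpl was at 107 and 34.9 CPM, a ratio of 3.08 (2.86 to 3.32), and Icam1 at 9.86 and 3.52 CPM, a ratio of 2.80 (2.21 to 3.58). All 3 genes were also higher in Oct4+ than in Pdgfra+ cells of the other line, and Cd24a and Cd9 were lower in both. Of the other genes called higher in Oct4+ in bulk, Ly6e (ratio 1.36) and Adgre5 (1.77) were within 2-fold here. Ly6a, also called higher in Oct4+ in bulk, was 11.3-fold lower in epiblast-like cells. The references differ, since Pdgfra+ cells were sorted without reporter. The endoderm-like class of 1327 cells includes 683 of cluster 5, which had the highest Pou5f1 among its clusters. In clusters 1 and 2 alone, Ly6e was at 41.5 and 48.2 CPM, against 152 CPM in epiblast-like cells. Adgre5 was at 4.77 and 2.33 CPM there, against 15.8 CPM. Ly6a was at 52.0 CPM in cluster 1 and 2.33 CPM in cluster 2, against 5.77 CPM, so that its direction depended on the cluster.

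Ly6a lay on the endoderm side of the -4OHT culture, apart from cluster 2. It was at 65.2 CPM (61.9 to 68.6) in endoderm-like and at 5.77 CPM (5.24 to 6.34) in epiblast-like cells, an 11.3-fold difference (10.1 to 12.6). Within the endoderm-like class it stood at 94.1 CPM (89.1 to 99.3) in cluster 5, at 52.0 CPM (42.7 to 62.7) in cluster 1 and at 2.33 CPM (1.27 to 3.91) in cluster 2. Cluster 5 had a Ly6a UMI in 40.1% of its cells, or 22.8% when each cell was thinned to 5000 UMIs. In the epiblast-like cells the shares were 6.68% and 2.39%, at median depths of 18895 and 18997 UMIs, which differ little. Cluster 5 was also the endoderm-like cluster of -4OHT with the highest Pou5f1, at 22.1 CPM (19.7 to 24.7), against 2.86 CPM (1.05 to 6.23) in cluster 1 and 3.49 CPM (2.16 to 5.34) in cluster 2.

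The same cluster separated other members. Within the endoderm-like cells of -4OHT, Ly6e was at 150 CPM in cluster 5 against 41.5 CPM in cluster 1 and 48.2 CPM in cluster 2. Alpl was at 46.9 CPM against 15.3 and 13.6 CPM, and Adgre5 at 12.4 CPM (10.6 to 14.4) against 4.77 CPM (2.29 to 8.77) and 2.33 CPM (1.27 to 3.91). Cd24a and Cd81 went the other way. Cd24a was at 6.84 CPM (5.54 to 8.35) in cluster 5, 72.5 CPM (61.4 to 84.98) in cluster 1 and 36.6 CPM (31.9 to 41.7) in cluster 2, and Cd81 was at 73.7, 313 and 198 CPM. The Cd24a level of cluster 5 did not exceed the 8.94 CPM of epiblast-like cells of -4OHT, while that of the whole endoderm-like class did. Thus 3 of the 4 members that climbed from Pdgfra+ to DP to Oct4+ in bulk (Ly6e, Alpl and Adgre5) were highest in cluster 5 among these 3 clusters. The fourth, Pecam1, also had its highest count there, but its interval of 4.33 to 6.85 CPM overlapped that of cluster 1. Its counts in endoderm-like cells are not read as expression, as described below. The part of free RNA from epiblast-like cells and of barcodes holding both cell types in the cluster 5 levels was not tested.

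The tetraspanin Cd9 was detected throughout. It was at 815 CPM (803 to 827) in endoderm-like and at 329 CPM (325 to 333) in epiblast-like cells of -4OHT, and 99.4% and 96.4% of cells held a UMI. Cd24a was 2.36-fold (2.09 to 2.66) and Fut4 2.56-fold (1.64 to 3.96) lower in epiblast-like cells, the latter from 51 and 39 UMIs. Ly6e (ratio 1.36), Cd81 (1.37) and Adgre5 (1.77) were within 2-fold, although in cluster 4, the epiblast-like cluster with the higher Pecam1, Ly6e reached 226 CPM (220 to 232) against 110 CPM (107 to 113) in cluster 3.

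Cluster 4 exceeded cluster 3 in several members. Pecam1 was at 69.0 CPM (66.0 to 72.2) against 34.97 CPM (33.3 to 36.7), Alpl at 166 CPM against 73.5 CPM, Cd24a at 14.1 CPM against 5.97 CPM, and Icam1 at 12.8 CPM (11.5 to 14.3) against 8.12 CPM (7.33 to 8.98). Pou5f1 was not higher there, at 41.4 CPM (39.0 to 43.9) against 52.5 CPM (50.5 to 54.6). A Pecam1 UMI was found in 65.6% of cluster 4 and 44.1% of cluster 3 cells, and in 27.8% and 15.5% after thinning to 5000 UMIs. For comparison, it was found in 0.597% of endoderm-like cells of +4OHT (0.248% thinned), a library with no cells in the epiblast-like clusters, at a median depth of 12557 UMIs, and in 0 of 31 fibroblast-like cells there. In -4OHT it was found in 5 of 20 fibroblast-like cells (25%, or 4.70% thinned, at a median depth of 26791 UMIs) and in 4.30% of endoderm-like cells (1.20% thinned, at 14965 UMIs). The endoderm-like share did not exceed that of these few and deeper fibroblast-like cells (interval 8.66% to 49.1%). With 20 such cells this comparison cannot decide whether endoderm-like cells express Pecam1. Throughout, Pecam1 levels and ratios in endoderm-like cells are therefore given as counts and not read as expression. Pecam1 in endoderm-like cells of -4OHT stood at 8.56% of its epiblast-like level, while the shares of 16 epiblast markers ran from 5.70% to 81.9% with a median of 17.1% (Nanog 7.16%, Sox2 7.21%, Pou5f1 31.4%). The part of free RNA from epiblast-like cells and of doublets in these values, and in the Pecam1 ratio between the libraries given below, was not tested.

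**Figure D3:**
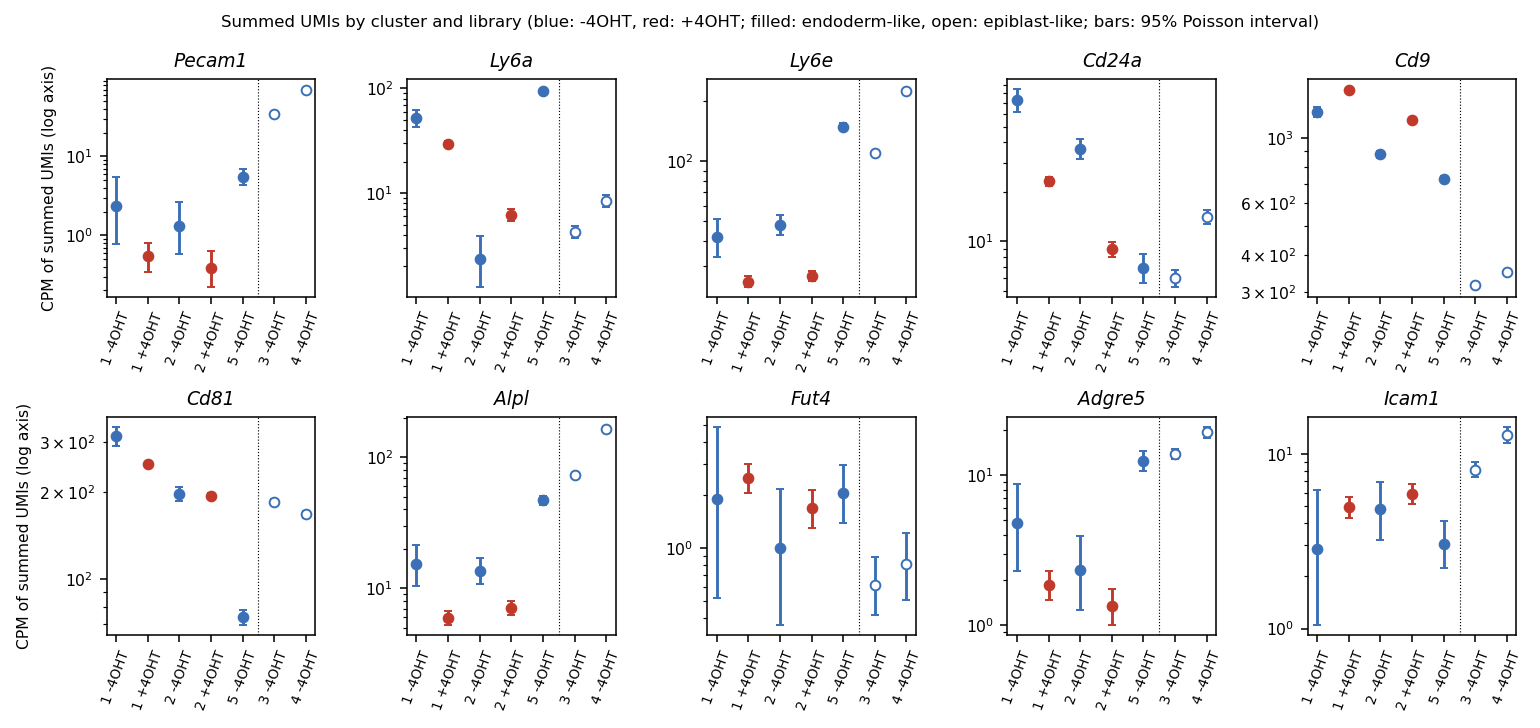
CPM of summed UMIs (log axis) of the 10 genes by cluster and library, with 95% Poisson intervals, in endoderm-like clusters 1, 2 and 5 (filled) and epiblast-like clusters 3 and 4 (open). Cluster 5 holds the highest Ly6a, at 94.1 CPM, and the lowest Cd81, at 73.7 CPM.

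The last comparison asked how the markers differ in endoderm-like cells after deletion of Oct4. Over all endoderm-like cells, 5 of the 10 members were more than 2-fold lower in +4OHT (Pecam1, Ly6a, Ly6e, Alpl and Adgre5) and none was more than 2-fold higher. Among 6306 genes with a mean of at least 20 CPM, 10.1% lay past 2-fold (7.12% higher and 2.93% lower), and of the 5 members at that level 3 were lower. The lower level in +4OHT was 8.67-fold for Pecam1 (5.91 to 12.9, from 40 UMIs in +4OHT and 90 in -4OHT), 5.57-fold for Adgre5 (4.46 to 6.97), 5.36-fold for Alpl (4.80 to 5.99), 4.35-fold for Ly6e (4.10 to 4.61) and 3.55-fold for Ly6a (3.30 to 3.82). Cd24a was 1.29-fold lower, while Cd9 was 1.61-fold (1.59 to 1.64), Cd81 1.72-fold (1.65 to 1.79) and Icam1 1.53-fold (1.20 to 1.98) higher. The interval of Fut4 (0.844 to 1.74) covered a ratio of 1. Epiblast markers moved with the lower members, since the 5 of 16 with a mean of at least 20 CPM (Zfp42, Utf1, Dppa5a, Tdh and Tfcp2l1) were all more than 2-fold lower in +4OHT, at a median log2 ratio of -1.97. Within clusters 1 and 2, Nanog was at 7.15 and 5.99 CPM in -4OHT and at 0.0677 and 0.0975 CPM in +4OHT, and Sox2 at 6.68 and 7.81 CPM in -4OHT and at 0.271 and 0.341 CPM in +4OHT. The part of free RNA from epiblast-like cells, which were found in -4OHT, in the members' ratios was not tested.

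Because cluster 5 was absent from +4OHT, ratios were also taken within clusters 1 and 2, which both libraries share, an alternative chosen after seeing the clusters. Sharing a cluster does not match the cells of the libraries. In the finer clustering, an endoderm-like cluster led by Igfbp1, Cpm and Frzb held 185 cells of -4OHT and 5 of +4OHT. The part of such differences in make-up in the ratios below was not tested. Over clusters 1 and 2, 3 of 10 members were more than 2-fold lower in +4OHT (Pecam1, Cd24a and Alpl), Ly6e and Adgre5 fell short of 2-fold, and Ly6a turned to a log2 ratio of 0.28. Among 6349 genes with a mean of at least 20 CPM in these clusters, 1.54% lay past 2-fold (0.992% higher and 0.551% lower), and of the 4 members at that level Cd24a was lower. Cd24a, which differed little over the whole class, was 3.12-fold lower in cluster 1 (2.62 to 3.71) and 4.09-fold lower in cluster 2 (3.45 to 4.85). In cluster 1 it stood at 72.5 CPM in -4OHT and at 23.2 CPM in +4OHT, and in cluster 2 at 36.6 and 8.94 CPM. Ly6e was 1.66-fold (1.32 to 2.07) and 1.81-fold (1.59 to 2.06) lower, and Alpl 2.56-fold (1.72 to 3.70) and 1.92-fold (1.49 to 2.46) lower. Ly6a was 1.75-fold lower (1.43 to 2.13) in cluster 1, at 29.6 against 52.0 CPM, but 2.65-fold higher (1.55 to 4.91) in cluster 2, at 6.16 against 2.33 CPM.

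Pecam1 had ratios of 0.227 (0.085 to 0.762) in cluster 1 and 0.293 (0.118 to 0.791) in cluster 2, from 5 and 8 UMIs in -4OHT. Adgre5 had ratios of 0.388 (0.201 to 0.840) and 0.576 (0.316 to 1.12), so that the interval of cluster 2 covered a ratio of 1. Cd81 was at 251 CPM in +4OHT and 313 CPM in -4OHT in cluster 1, and at 194 and 198 CPM in cluster 2, so that its higher level over the whole class was not seen in either. Cd9 was 1.19-fold (1.15 to 1.24) and 1.31-fold (1.27 to 1.35) higher in +4OHT. For Fut4 and Icam1 the intervals of both clusters covered a ratio of 1, with as few as 4 and 6 UMIs in the -4OHT cells of cluster 1. Pou5f1 itself was at 2.35 CPM (1.92 to 2.85) in +4OHT and 2.86 CPM (1.05 to 6.23) in -4OHT in cluster 1, intervals that overlap, and at 1.10 CPM (0.80 to 1.47) and 3.49 CPM (2.16 to 5.34) in cluster 2.

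**Figure D4:**
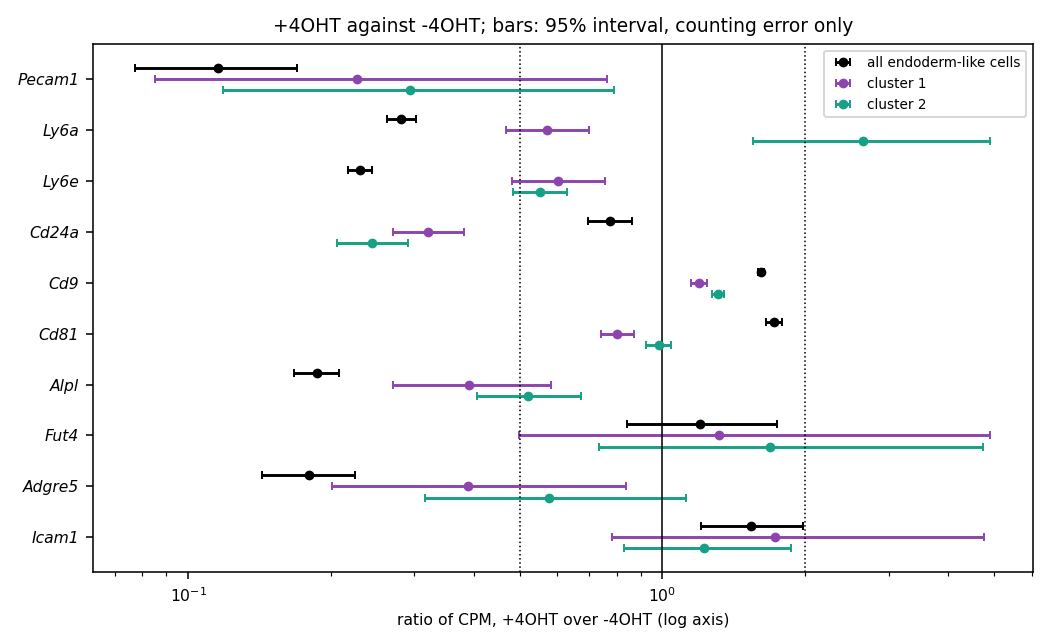
Ratio of CPM in +4OHT over -4OHT (log axis) of the 10 genes with 95% intervals for counting error, over all endoderm-like cells and within clusters 1 and 2, with dotted lines at 2-fold. Cd24a is further from a ratio of 1 within the clusters than over the class, and Ly6a lies on opposite sides in clusters 1 and 2.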

How the data were processed

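For the 9 bulk libraries, the authors deposited whole read counts by gene symbol, from single-end sequencing of directional libraries. For these counts the aligner, counting tool, build, annotation and strand setting are not given in sources used here. A total of 35 blank lines held no counts and were left out. For the 2 EPUc libraries the authors deposited UMI counts of barcodes called as cells by Cell Ranger 6.1.2 per the file headers, against mm10.

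The bulk test was edgeR 4.0.16 in R 4.3.3. After filterByExpr (14185 genes) and TMM scaling, a quasi-likelihood model with a term for group alone took in the 9 libraries, and calls needed an adjusted p under 0.05 with a log2 fold change beyond 1.5 in size. DESeq2 1.42.0 was an alternative. Replicates differed beyond sampling noise in all pairs, at a chi-square of 18.4 to 40.4 per degree of freedom. Same-numbered DP and Pdgfra+ libraries deviated together across genes, at correlations of 0.271, 0.477 and 0.321, so that the numbers pair these groups, a pairing read from the counts.

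Cells were clustered with scanpy 1.11.5 (2000 variable genes without the members, 20 principal components, 15 neighbours, Leiden resolution 0.2). A cluster took the name of the marker list with the highest median enrichment among lists with at least 3 genes found in 25% of its cells. It stayed unnamed at low depth, or with at least 12 markers of both main classes at 1.5 times the depth, limits set after seeing the data. Cell doublets were not called. UMIs were summed per library and class, ratios got exact conditional binomial intervals, and a 0 was read as up to 3 counts. Bulk and single-cell procedures were tested on simulated data. The 10 genes, the marker lists and the context lists were chosen with earlier results of these data known. Named genes are all members, the 2 best-correlated genes of each (some are not reported here), lineage genes as checks, and up to 3 genes per context list that changed most among those past the threshold. Cd55, Amn, Cubn, Fbn1, Col1a1, Col3a1, 4 epiblast markers (Utf1, Dppa5a, Tdh, Tfcp2l1) and the genes that lead a cluster were named outside this rule, after their values were seen.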

Additional observations from a re-analysis of the deposited data

Results flagged for a closer look

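Ly6a differed in opposite directions between -4OHT and +4OHT in the endoderm-like clusters that both libraries share. The ratio of its level in +4OHT over -4OHT was 0.570 (0.469 to 0.700) in cluster 1 and 2.65 (1.55 to 4.91) in cluster 2, the latter from 253 and 14 UMIs. The cells of cluster 2 with a Ly6a UMI were 4.81% in +4OHT and 2.66% in -4OHT (1.92% and 1.05% thinned to 5000 UMIs), below the 6.68% (2.39% thinned) of epiblast-like cells. The difference between these ratios was not tested, since each condition had 1 library.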

How the results depend on the processing

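In DP against Pdgfra+, 6 members passed under every alternative that kept all 9 or the 6 compared libraries, and 1 to 7 when a library was left out. In DP against Oct4+ the count was 4, and 4 to 6 without a library, and a fold threshold of 1 on the log2 scale raised it to 8. With all libraries kept, Ly6e and Adgre5 also passed with DESeq2, with its size factors in edgeR and with a stricter filter on low counts. Ly6a passed there with no filter on low counts. In Oct4+ against Pdgfra+ it was 8, and 7 to 8 without a library. Without a filter on low counts, calls over all genes rose from 552 to 1023 in DP against Pdgfra+, and DESeq2 called 870. Cd9 in DP against Pdgfra+ ran from -0.072 (without DP replicate 1) to 0.24 over the fits that left out a library, and was at -0.06 without Pdgfra+ replicate 3. Cd81 in DP against Oct4+ ran from -0.23 (without DP replicate 1) to 0.50. None of these passed. Fits that leave a group with 2 libraries rest on fewer samples.

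With the replicate block, 6 members passed in DP against Pdgfra+, as without it, and the block changed no call of a member there. Numbers of the other groups mark no pairing that the counts show, with correlations of 0.0222, -0.0728 and 0.152 for DP and Oct4+ and 0.0383, -0.00412 and -0.0465 for Oct4+ and Pdgfra+. The block gave 6 members in DP against Oct4+ and 7 in Oct4+ against Pdgfra+, where Ly6a was at an adjusted p of 0.0664.

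In endoderm-like cells the 5 members past 2-fold became 8 at a threshold of 1.5-fold and 3 in clusters 1 and 2 only, where Ly6a turned to 0.28. The stricter filter gave 4, without Ly6a (-0.55). Scaling by the median ratio in place of the total moved the median of all genes from 0.12 to -0.02 on the log2 scale and left the 5. Between classes of -4OHT the count was 7, and 7 or 8 under the alternatives. The causes were not tested. Low UMI counts limit Fut4, and Pecam1 outside epiblast-like cells.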
